A study of Schizosaccharomyces pombe with 10 samples.

Results

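The small nuclear and small nucleolar RNAs of the fission yeast Schizosaccharomyces pombe were followed in an RNA sequencing study of bag101 overexpression. Members were all features of the deposited count tables whose identifier begins with SPSNRNA. or SPSNORNA., whatever their values. There were 60 of them among 7017 listed features, 7 with the first prefix and 53 with the second. The 7 are the spliceosomal RNAs U1 (snu1), U2 (snu2), U4 (snu4), U5 (snu5) and U6 (snu6) and both copies of the nucleolar RNA U3 (snu3 and snu32). Of the 53 others, 19 carry an annotation as box H/ACA snoRNAs and 34 carry another snoRNA annotation. Of all members 26 were at 0 reads in all libraries, 17 had reads but too few for the test, and 17 were tested.

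Small nuclear RNAs form the spliceosome with their proteins: U1 pairs with the 5′ splice site, U2 with the branch point, and U4, U5 and U6 join as a tri-snRNP. Small nucleolar RNAs guide changes to ribosomal RNA, the box C/D class 2′-O-methylation and the box H/ACA class pseudouridylation. A few, among them U3 and U14, are known for their part in cutting the precursor of 18S rRNA. In yeasts many are transcribed from their own promoters, others lie in a shared precursor or in an intron of a host gene, and the mature RNAs of both kinds carry no long poly(A) tail.

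The overexpression group was 5 cultures of wild type cells that overexpressed bag101, a gene for a BAG-domain co-chaperone of Hsp70, and the control group was 5 cultures of wild type cells with a vector. All cells grew in the minimal medium EMM2 at 29 °C, and total RNA was taken with hot phenol. The series text calls the cultures independent repeats. Not given in the sources used here are the promoter that drives bag101, how long it was on, and how libraries were made, including any selection for poly(A) or for size. Reads assigned to features numbered 10.2 to 10.9 M per library with overexpression and 5.54 to 11.8 M in the controls. Log2 CPM values correlated across features at 0.986 to 0.995 among overexpression libraries, 0.994 to 0.997 among controls and 0.828 to 0.846 between the groups. The gene bag101 itself was listed at 0 reads in all 10 libraries, so its level could not check the labels, and each direction below rests on them.

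The members that the results turn on are shown first, as RefSeq gives them for assembly ASM294v3. Capitals mark a part that is known to matter or letters found by a search. Among the RNAs that were higher with overexpression, U1 (chromosome II, plus strand) has its 5′ end, which pairs with the 5′ splice site, and the letters of the Sm protein site in capitals. U6 (chromosome I, minus strand) has its intron of 50 bases and U14 (chromosome II, plus strand) its boxes C and D. For snu32 (chromosome II, minus strand) the capitals are the letters TGATGA before its midpoint and CTGA after it. They are matches only, and box C of U3 was not located.
snu1: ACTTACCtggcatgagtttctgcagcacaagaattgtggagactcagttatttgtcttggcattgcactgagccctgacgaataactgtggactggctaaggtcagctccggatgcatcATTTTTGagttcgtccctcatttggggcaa
snu6: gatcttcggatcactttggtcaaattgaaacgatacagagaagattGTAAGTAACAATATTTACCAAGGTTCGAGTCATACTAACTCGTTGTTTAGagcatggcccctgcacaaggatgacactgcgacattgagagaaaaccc
snoU14: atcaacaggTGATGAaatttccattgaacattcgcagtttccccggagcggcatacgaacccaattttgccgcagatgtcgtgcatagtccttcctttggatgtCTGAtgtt
snu32: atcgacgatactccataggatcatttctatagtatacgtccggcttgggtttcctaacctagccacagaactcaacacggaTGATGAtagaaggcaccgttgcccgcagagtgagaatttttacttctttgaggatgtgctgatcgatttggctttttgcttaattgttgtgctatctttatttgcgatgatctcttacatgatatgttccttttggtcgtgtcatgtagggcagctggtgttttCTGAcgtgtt

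Among the RNAs that were lower with overexpression and whose groups did not overlap, snR93 (chromosome II, plus strand) and snR46 (chromosome III, minus strand) have the ACA of their 3′ end in capitals, snoR69b (chromosome I, plus strand) its boxes C and D, and snR94 (chromosome III, plus strand) has no ACA at the searched place.
snR93: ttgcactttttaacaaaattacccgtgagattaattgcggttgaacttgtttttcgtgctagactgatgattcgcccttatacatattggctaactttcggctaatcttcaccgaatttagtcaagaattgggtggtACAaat
snR94: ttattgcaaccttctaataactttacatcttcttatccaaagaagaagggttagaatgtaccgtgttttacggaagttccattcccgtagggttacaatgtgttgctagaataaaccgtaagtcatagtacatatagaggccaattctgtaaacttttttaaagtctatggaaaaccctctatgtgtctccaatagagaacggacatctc
snR46: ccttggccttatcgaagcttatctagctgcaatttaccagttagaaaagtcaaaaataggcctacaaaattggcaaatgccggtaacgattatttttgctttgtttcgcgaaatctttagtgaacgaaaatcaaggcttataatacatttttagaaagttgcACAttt
snoR69b: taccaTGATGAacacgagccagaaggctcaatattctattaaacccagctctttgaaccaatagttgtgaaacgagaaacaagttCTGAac

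The intronic snoRNAs, read below against their host genes, are snoR38 (chromosome I, plus strand), snoR58 (chromosome I, minus strand), and snoR39b and snoR47 (both chromosome II, minus strand), with box D and, where present, box C in capitals.
snoR38: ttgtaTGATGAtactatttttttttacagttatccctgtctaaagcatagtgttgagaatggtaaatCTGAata
snoR58: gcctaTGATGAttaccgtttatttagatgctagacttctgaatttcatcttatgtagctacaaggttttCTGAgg
snoR39b: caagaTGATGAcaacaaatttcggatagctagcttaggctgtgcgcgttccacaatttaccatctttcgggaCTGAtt
snoR47: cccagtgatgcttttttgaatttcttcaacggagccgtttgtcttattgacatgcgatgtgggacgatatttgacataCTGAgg

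Across the annotation the box letters were common but not general. Box C, searched as TGATGA on the RNA strand up to the midpoint of each record, was found in 20 of the 36 U3 and other snoRNA records, and box D, CTGA after the midpoint, in 32 of the 36. The same searches matched 0.722% and 11.8% of windows of 84 bases from protein-coding genes. An ACA that ends 3 bases before the end was found in 9 of 19 box H/ACA records, against 1.62% of protein-coding windows of 168 bases. Classes follow the product names, so the 36 are not all known to be of the C/D class. snR30, named U17 and counted among the 36, also has ACA at that place. ATTTTTG, the Sm letters, was found in 1 of the 5 snRNA records, U1, against 5.70% of windows of 144 bases. These are matches of letters and say nothing of use in the cell.

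Which members had reads followed their place in the annotation. Of 22 members that lie at least in part in an exon of another counted feature, 21 were at 0 in all 10 libraries, and the remaining one, snR36, had 3 reads in all. The 14 that share a strand with that exon were all at 0, and so were 8 of the 9 that lie opposite one (snR97 counts in both). All 10 members in an intron had reads, and of the 28 outside any other counted feature 23 had reads. The 5 at 0 in that last set were snoZ16, snR30, snr62, sno16 and snR95. Other features behaved likewise: of 553 that are wholly covered by exons of others 530 were at 0, against 192 of 2735 with no base covered. The deposited tables set aside reads that overlap more than 1 feature, so a level of 0 here is not a measure of absence.

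**Figure D1:**
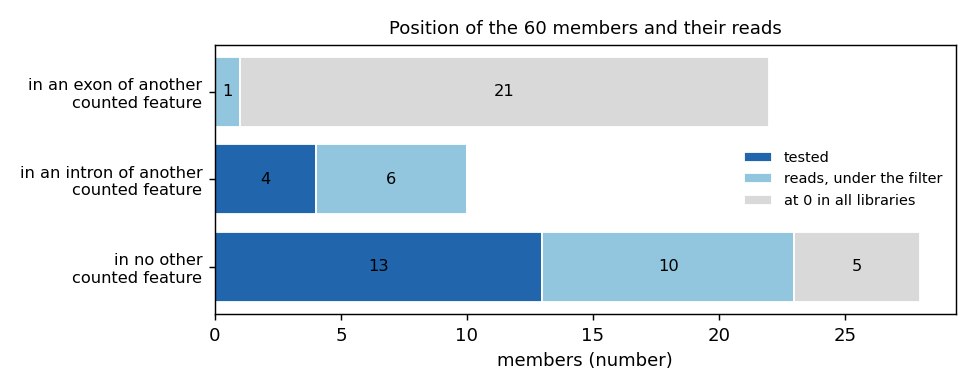
Number of members (horizontal axis) by where their annotated span lies, split into tested, with reads but under the filter, and at 0 in all libraries. In exons of other counted features 21 of 22 members were at 0, against 0 of 10 in introns and 5 of 28 outside other features.

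For several of these members a transcript that contains them, or a gene opposite them, did have counts. The transcript snoZ (SPNCRNA.659), which holds snoZ3, snoZ4, snoZ5, snoZ7 and snoZ8, averaged 1.02 ± 0.21 CPM with overexpression and 2.81 ± 0.46 CPM in controls (SD, n = 5 each), where CPM is the count over the TMM-scaled library size in M reads. Its log2 fold change was −1.43, with an SE of 0.21 (adjusted p = 1.32e-05). The transcript around snoR68 (SPNCRNA.1650) rose by 1.85 ± 0.23 and the one around snoZ30 (SPNCRNA.1483) fell by 0.51 ± 0.23 (adjusted p = 2.15e-06 and 0.0486). The transcript of the snR41, snR70 and snR51b cluster (SPNCRNA.723) held 6 reads over all libraries. Of the protein-coding genes on the strand opposite a member, gpi12, a GPI-anchor enzyme opposite snr79, rose by 2.797 ± 0.07, and tim17, a mitochondrial import subunit opposite snR96, by 0.50 ± 0.07 (adjusted p = 2.09e-14 and 3.92e-06). Genes opposite other members were lower: taf9 (opposite sno52) fell by 0.82, not3 (opposite snR90) by 0.58 and psd1 (opposite snR36) by 0.35, while alg3 (opposite snoR02) did not pass the test at −0.07 (adjusted p = 0.238). The values belong to the host or opposite gene and give no level for the snoRNA.

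Members together took a very small share of the reads. With overexpression they held 0.0150 ± 0.000794% of feature reads (SD, n = 5), 0.0141% to 0.0160%, and in controls 0.00918 ± 0.000392%, 0.00879% to 0.00976%. The groups did not overlap. The rise lay in 1 RNA, snoU14. With it left out, a choice made after its values were seen, the shares were 0.00716 ± 0.000772% with overexpression and 0.00749 ± 0.000525% in controls. The mean was then slightly lower with overexpression, and the ranges overlapped. Among the tested members 13 of 17 averaged under 10 CPM, where the median over all tested features was 82.0 CPM. A count of 0 in 1 library allows up to 3 reads, which is 0.294 to 0.338 CPM in the overexpression libraries and 0.224 to 0.483 CPM in the controls, for counting error only.

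Of the 17 tested members 12 (70.6%) passed the test at an adjusted p below 0.05, 7 of them higher and 5 lower with overexpression. Over all 4681 tested features 83.6% passed, 40.4% higher and 43.2% lower, so the members' shares were near the background or below it. The groups did not overlap for 7 of the 17, 3 with overexpression above and 4 below, against 74.6% of all tested features. The tested members had a median log2 fold change of 0.12, and all tested features one of −0.03. The median size of the change regardless of sign was 0.98 for the members and 0.68 for all tested features. These sizes are not like for like, since 13 of the 17 members averaged under 10 CPM and 3 had to differ to be tested. The filter on low counts asked for about 0.925 CPM, before TMM scaling, in at least 5 of the 10 libraries, whatever their group. Of the 17, 5 reached it in all 10 and 9 in some libraries of each group. U1 reached it in the 5 overexpression libraries and 0 controls, and snR46 and snoR69b in the 5 controls and 0 overexpression libraries, so these 3 had to differ to be tested. In bulk cultures a change in some cells and a change in all cells cannot be told apart.

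**Figure D2:**
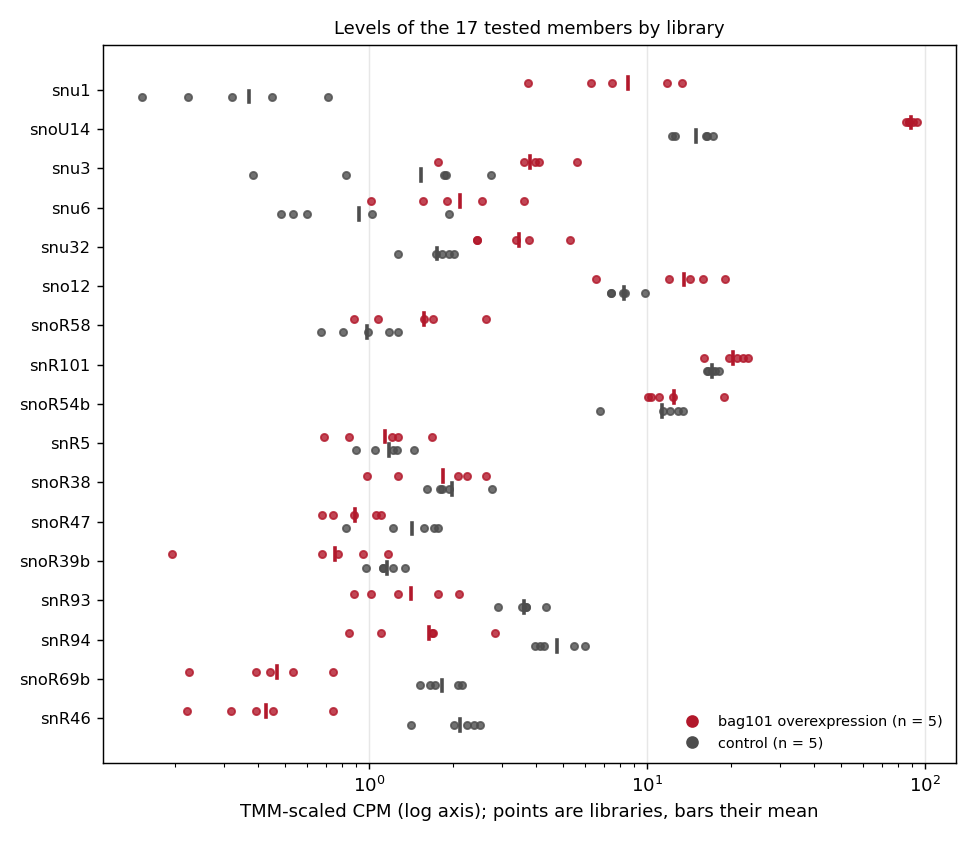
Level of each tested member in each library, as TMM-scaled CPM on a log axis, overexpression above control in each row, with bars at the group mean. U1, snoU14 and snu32 lie apart with overexpression above, snR93, snR94, snoR69b and snR46 with overexpression below, and the other 10 members overlap.

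Both tested spliceosomal RNAs were higher with overexpression. U1 reached the filter in overexpression libraries only, so it had to be higher there to be tested. U1 had 3.73, 7.51, 6.29, 13.3 and 11.8 CPM in overexpression libraries 1 to 5, against 0.224, 0.322, 0.153, 0.449 and 0.711 CPM in control libraries 1 to 5. Every overexpression library lay above every control. This was a log2 change of 4.46, with an SE of 0.46 (adjusted p = 6.57e-07), on 395 reads with overexpression and 22 in controls, a control level of a few reads per library. U6, the RNA at the catalytic centre, had 1.57, 3.60, 2.54, 1.02 and 1.91 CPM with overexpression, against 1.94, 0.483, 0.534, 0.599 and 1.03 CPM in controls. Control libraries 1 and 5 lay within the overexpression range, and the log2 fold change was 1.13 ± 0.40 (adjusted p = 0.0170). Without overexpression library 2, the highest, the change in U6 was 0.86 and no longer passed (adjusted p = 0.0590). S. pombe U6 is spliced, and the counts do not say whether a read came from the spliced form.

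The other 3 spliceosomal RNAs stood under the filter on low counts. U2 had 0.687, 2.54, 2.65, 2.48 and 1.60 CPM with overexpression, against 0.449, 0.322, 0.458, 0.150 and 0.237 CPM in controls, from 92 reads with overexpression and 19 in controls. U5, which holds the exons at the catalytic centre, had 0.785, 0.529, 0.663, 0.790 and 0.745 CPM with overexpression, against 0.374, 0.483, 0.153, 0.300 and 0.237 CPM in controls, from 33 reads with overexpression and 17 in controls. In both RNAs each overexpression library lay above each control on the TMM scale. With library totals U5 overlaps: overexpression library 2 had 5 of 10.75 M reads and control library 2 had 3 of 5.54 M. U4, the partner that keeps U6 inactive until the spliceosome forms, had 13 reads with overexpression and 7 in controls, with levels that overlapped. When the filter was dropped, U2 (2.56, adjusted p = 1.53e-05) and U5 (1.24, adjusted p = 0.00469) passed the test and U4 did not (1.14, adjusted p = 0.100). Per 1000 exon bases, U1 stood at 57.2 CPM, U6 at 22.6, U2 at 10.6, U5 at 5.85 and U4 at 2.15 with overexpression. This scale takes out length only. How well each RNA enters a library is not known here, so the values do not rank the RNAs in the cell. On the same scale the controls had 2.50 for U1, 9.76 for U6, 1.73 for U2, 2.58 for U5 and 0.833 for U4.

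**Figure D3:**
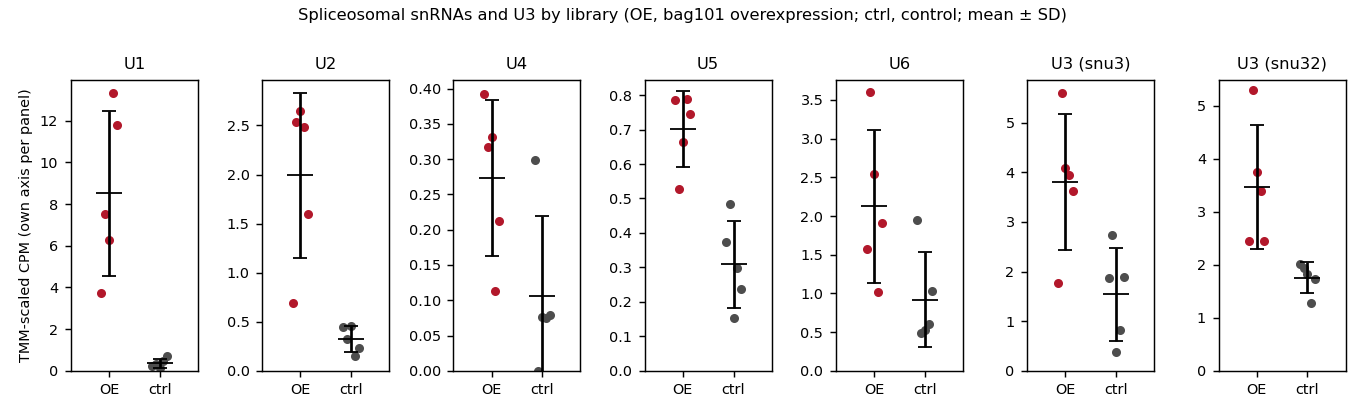
TMM-scaled CPM of the 5 spliceosomal RNAs and both U3 copies in each library, with an own vertical axis per panel, overexpression left of control, and bars for the mean and SD. The groups lie apart for U1, U2, U5 and snu32 and overlap for U4, U6 and snu3.

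Ratios inside a library do not depend on scaling. The log2 ratio of U1 to U2 reads, with 0.5 added to each, was 2.36, 1.55, 1.23, 2.40 and 2.85 in overexpression libraries 1 to 5, against −0.89, 0.00, −1.38, 1.38 and 1.44 in controls. Control libraries 4 and 5 lay within the overexpression range. The ratio averaged 2.08 ± 0.67 with overexpression and 0.11 ± 1.29 in controls (SD, n = 5 each), a difference of 1.97 with a two-sided exact permutation p of 0.0317. Adjusted over the 2 ratios tested this was 0.0635 and did not pass 0.05. The smallest p that 5 against 5 libraries allow is 0.00794. The log2 ratio of U4 to U6 averaged −2.69 ± 0.52 with overexpression and −2.67 ± 0.33 in controls, a difference of −0.02 (exact permutation p = 0.944), on 13 U4 reads with overexpression and 7 in controls.

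Both copies of U3, the snoRNA of the small-subunit processome, were higher with overexpression. snu3 had 1.77, 5.60, 4.09, 3.95 and 3.62 CPM with overexpression, against 1.87, 2.74, 0.382, 0.824 and 1.90 CPM in controls, and overexpression library 1 lay within the control range. Its log2 fold change was 1.41 ± 0.39 (adjusted p = 0.00391). snu32 had 2.45, 5.29, 3.75, 3.38 and 2.45 CPM with overexpression, against 2.02, 1.93, 1.83, 1.27 and 1.74 CPM in controls. The groups did not overlap on this scale, and the log2 fold change was 0.98 ± 0.24 (adjusted p = 0.00128). After the group means were taken off, the tested members whose log2 CPM followed snu3 most closely over the 10 libraries were snoR47 (Pearson r 0.60), snu32 (0.57) and snoR69b (0.53), a description of points that share libraries and depth.

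The U3 records overlap in sequence but not in extent, which bears on these counts. Over their whole length the snu3 and snu32 records matched at 50% of alignment columns. In a local alignment, bases 3 to 134 of the snu3 record matched bases 125 to 255 of snu32 at 87.1%. The 250 bases before the snu3 record held the other piece: their bases 129 to 250 matched bases 1 to 122 of snu32 at 96.7%. The ASM294v3 record of snu3 thus begins 122 bases after the base that aligns with the first of snu32. Which bases the deposited count of snu3 covers is not given in the sources used here, and reads that match both copies equally are among those the tables set aside, so each copy's count is uncertain.

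Of the other snoRNAs outside introns, U14 was the member with the most reads and the largest rise of an SPSNORNA. feature whose groups lay apart. snoU14, which is required for 18S rRNA formation in budding yeast, had 87.3, 90.3, 87.2, 85.5 and 93.3 CPM with overexpression, against 12.3, 16.3, 12.6, 17.3 and 16.4 CPM in controls. The lowest overexpression library stood well above the highest control. It averaged 88.7 ± 3.08 CPM with overexpression and 14.99 ± 2.34 CPM in controls (SD, n = 5 each). That is a log2 change of 2.57 with an SE of 0.09 (adjusted p = 7.78e-13), on 4169 reads with overexpression and 870 in controls. Its neighbours lie on the opposite strand: ldb1 upstream had a log2 fold change of 0.11 ± 0.05 (adjusted p = 0.0700) and sol1 downstream rose by 0.32 ± 0.06 (adjusted p = 2.12e-04). With group means taken off, the members whose log2 CPM followed it most closely over the 10 libraries reached a Pearson r of only 0.39 (U1), 0.39 (snoR58) and 0.27 (snu3).

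snoR69b, a snoRNA with both boxes of the C/D class, moved the other way. It had 0.393, 0.740, 0.442, 0.226 and 0.532 CPM with overexpression, against 2.17, 2.09, 1.53, 1.72 and 1.66 CPM in controls. The groups did not overlap, and the level fell by 1.92 ± 0.28 on the log2 scale (adjusted p = 1.13e-05), on 22 reads with overexpression and 106 in controls. snoR69b reached the filter in control libraries only, so it had to be lower with overexpression to be tested. dap1, the next gene downstream on the same strand, fell by 0.81 ± 0.10 (adjusted p = 1.30e-06). snoR54b had 18.8, 10.05, 11.04, 12.4 and 10.3 CPM with overexpression, against 13.5, 6.76, 12.9, 11.4 and 12.1 CPM in controls. The groups overlapped and the log2 fold change was 0.12 (adjusted p = 0.574), while fio1, the iron transport oxidase gene upstream of it on the same strand, fell by 2.58 ± 0.25 (adjusted p = 3.30e-06).

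Of the 6 box H/ACA snoRNAs tested, 3 were lower, 2 higher and 1 did not pass, with a median log2 fold change of −0.70. These counts are near the background of 43.2% lower and 40.4% higher over all tested features. snR94 had 2.85, 0.846, 1.10, 1.69 and 1.70 CPM with overexpression, against 3.96, 5.96, 4.12, 4.27 and 5.45 CPM in controls. snR93 had 0.883, 2.12, 1.77, 1.02 and 1.28 CPM with overexpression, against 4.34, 2.90, 3.66, 3.67 and 3.55 CPM in controls. snR46 had 0.393, 0.740, 0.221, 0.451 and 0.319 CPM with overexpression, against 2.39, 2.25, 2.52, 2.02 and 1.42 CPM in controls. In all 3 the groups lay apart with every control above every overexpression library. They fell by 1.48 ± 0.25, 1.38 ± 0.22 and 2.28 ± 0.30 on the log2 scale, in the same order (adjusted p = 5.17e-05, 2.89e-05 and 4.39e-06). snR46 reached the filter in control libraries only, so it had to be lower with overexpression to be tested.

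Both H/ACA snoRNAs that were higher had overlapping groups. sno12 had 6.57, 19.1, 12.0, 14.3 and 15.96 CPM with overexpression, against 8.22, 7.41, 9.84, 8.31 and 7.42 CPM in controls, so overexpression library 1 lay below all controls and the other 4 above them. Its log2 fold change was 0.71 ± 0.22 (adjusted p = 0.00796). snR101, the longest of the called members with 273 bases, averaged 20.4 CPM with overexpression and 17.2 CPM in controls, a log2 fold change of 0.25 ± 0.10 (adjusted p = 0.0282). That rise did not hold under all scalings: with library totals it was −0.11 (adjusted p = 0.297). It also missed the threshold without any 1 of overexpression libraries 3, 4 and 5 and control libraries 2, 3 and 5 (0.20 to 0.24, adjusted p = 0.0520 to 0.0804). snR5 averaged 1.14 CPM with overexpression and 1.18 CPM in controls (−0.02, adjusted p = 0.955). Below the filter, snR10, known in budding yeast for a role in pre-rRNA cutting, had 42 reads with overexpression and 23 in controls. snR88 had 4 reads with overexpression and 21 in controls. In TMM-scaled CPM the groups of neither RNA overlapped. Both were chosen for mention after their values were seen. When the filter was dropped, snR10 passed the test as higher (1.17, adjusted p = 0.0102) and snR88 as lower (−1.93, adjusted p = 0.00706).

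Neighbouring genes give the setting of the 3 H/ACA snoRNAs that were lower. rpl29, a ribosomal protein gene upstream of snR93 on the same strand, fell by 0.96 ± 0.13, and skb5, upstream of snR94 on the same strand, by 0.99 ± 0.08 (adjusted p = 2.11e-05 and 2.01e-08). gst1, upstream of snR46 on the same strand, had a log2 fold change of −0.54 ± 0.30 that did not pass (adjusted p = 0.105). Downstream and on the opposite strand, dis2, a protein phosphatase gene next to snR93, did not pass (−0.07, adjusted p = 0.204), xlf1 next to snR94 rose by 1.24 ± 0.11 and lto1 next to snR46 fell by 1.07 ± 0.10. gpt2, upstream of U1 on the same strand, fell by 0.65 ± 0.06 (adjusted p = 1.36e-07) while U1 was higher. Beside other RNAs that were higher, tested neighbours on the same strand rose or did not pass. SPBC26H8.13c, upstream of snu32, rose by 1.05 ± 0.08. Downstream of snu3, cid13 rose by 0.84 ± 0.09, and downstream of sno12, mis16 rose by 0.49 ± 0.04. pop6 upstream of snR101 (−0.10) did not pass, nor did cwf21 upstream (0.02) and vrs2 downstream (0.19) of U6. Whether reads of neighbours enter a member's count was not tested.

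The 10 intronic snoRNAs sit in protein-coding genes, on the same strand. Of the 4 that were tested, 3 did not pass and stood in hosts that fell, and 1, snoR47, fell in a host that rose. snoR38 had 0.981, 2.64, 2.10, 2.26 and 1.28 CPM with overexpression, against 1.79, 1.61, 1.83, 1.95 and 2.76 CPM in controls, with overlap and a log2 fold change of −0.14 ± 0.26 (adjusted p = 0.630). Its host SPAC29A4.02c, a translation elongation factor 1 gamma gene, averaged 614 ± 71.0 CPM with overexpression and 1922 ± 169 CPM in controls, and fell by 1.65 ± 0.09 (adjusted p = 1.98e-10). snoR58 had 1.08, 2.64, 0.883, 1.58 and 1.70 CPM with overexpression, against 0.673, 0.805, 0.992, 1.27 and 1.18 CPM in controls, a log2 fold change of 0.65 ± 0.31 that did not pass (adjusted p = 0.0643) but did without overexpression library 1 or 3 (0.79 in both, adjusted p = 0.0264 and 0.0253). Its host ade4, the amidophosphoribosyltransferase gene of purine synthesis, fell by 0.83 ± 0.05 (adjusted p = 4.86e-10).

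Read against the host, both of these snoRNAs stood higher with overexpression. snoR38 had 1.94, 3.91, 3.48, 3.33 and 2.09 reads per 1000 host reads with overexpression, against 1.09, 0.825, 0.872, 1.01 and 1.39 in controls. snoR58 had 4.11, 9.25, 3.42, 6.22 and 6.87 per 1000 with overexpression, against 1.503, 1.63, 2.15, 2.74 and 2.56 in controls. Neither pair of groups overlapped, and no test was made of these ratios. snoR39b, in the ribosomal protein gene rpl701, averaged 1.14 ± 0.510 per 1000 with overexpression and 0.588 ± 0.0653 in controls, with overlap, while rpl701 fell by 1.62 ± 0.09. The level of snoR39b itself did not pass the test (−0.63 ± 0.32, adjusted p = 0.0841), and it passed as lower without overexpression library 5 (−0.84, adjusted p = 0.0353), with upper-quartile factors (−0.81, adjusted p = 0.0288) and with library totals (−0.98, adjusted p = 0.00923). Without overexpression library 1, its lowest, the value was −0.34 (adjusted p = 0.278).

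snoR47 ran the other way. It had 0.883, 1.06, 1.10, 0.677 and 0.745 CPM with overexpression, against 1.72, 1.77, 1.22, 0.824 and 1.58 CPM in controls, and fell by 0.63 ± 0.27 with overlap (adjusted p = 0.0454). Its host fta3, a kinetochore protein gene, rose by 0.49 ± 0.05 (adjusted p = 5.57e-07), and the snoRNA averaged 9.44 ± 2.08 reads per 1000 host reads with overexpression and 21.2 ± 6.19 in controls. The fall of snoR47 is close to the threshold and did not pass with RLE factors, TMM factors of overlap-free genes, no low-count filter, DESeq2 or limma-voom (adjusted p = 0.0506 to 0.0991), nor without any 1 of overexpression libraries 1, 4 and 5 and control libraries 1, 2 and 5 (−0.59 to −0.53, adjusted p = 0.0778 to 0.113). Reads in an intron may come from the snoRNA or from unspliced host RNA, and these cannot be told apart in the counts.

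**Figure D4:**
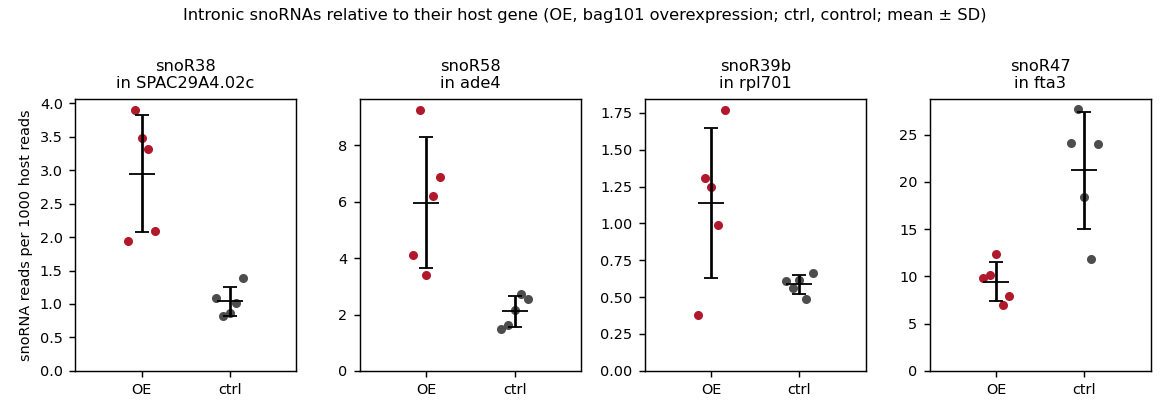
Reads of the 4 tested intronic snoRNAs per 1000 reads of their host gene in each library, with an own vertical axis per panel, overexpression left of control, and bars for the mean and SD. snoR38 and snoR58 lie apart with overexpression above, while snoR39b and snoR47 overlap.

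The other 6 intronic members had too few reads for the test. snoR54 in gua1, an IMP dehydrogenase gene, had 26 reads with overexpression and 43 in controls, and gua1 fell by 0.47 ± 0.13. snoZ15 in pfd1 had 5 reads with overexpression and 45 in controls, while pfd1 rose by 1.24 ± 0.21. With the filter dropped snoZ15 passed as lower (−2.70, adjusted p = 0.00102). snoU24b in cpc2, the RACK1 gene, had 4 reads with overexpression and 15 in controls, and cpc2 fell by 1.67 ± 0.13. snoR39a in rlp7 had 3 reads with overexpression and 7 in controls, snoU18 in ero11 had 3 in each group, and snoU24 in spt20 had 1 read with overexpression and 0 in controls. Of the 10 hosts, 6 were lower and 4 higher with overexpression, where 43.2% of all tested features were lower and 40.4% higher.

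Promoter letters were searched in the 250 bases before to 50 bases after each RefSeq start, on both strands. Members in an intron or a shared transcript may have no promoter in this window, and windows of nearby members can hold the same match. AGTCAC, the core of the HomolD box known from fission yeast ribosomal protein genes, was found for 18 of 60 members, against 8.22% of 12643 promoters. Among tested members it was found for 3 of the 7 higher (U1, snu3 and snu32), 1 of the 5 lower (snR46) and 0 of the 5 that did not pass. Of 132 ribosomal protein promoters 92.4% held it, and of 107 ribosomal protein genes tested 106 were lower with overexpression, with a median log2 fold change of −1.29. ACCCTA was found for 8 of 60 members and 6.68% of promoters, and among tested members only for sno12. TATAAA was found for 32 of 60 members and 45.2% of promoters, and for 6 of the 7 higher, 2 of the 5 lower and 2 of the 5 that did not pass. Of the 5 spliceosomal RNA genes 2, U1 and U4, held AGTCAC on either strand in this window, and U2, U5 and U6 did not. The stretches around the match nearest the start are shown for U1, U4 and both U3 genes, with GTGACT, the match as it reads on the gene's strand, in capitals.
snu1 promoter: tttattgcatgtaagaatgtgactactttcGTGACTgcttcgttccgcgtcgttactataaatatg
snu32 promoter: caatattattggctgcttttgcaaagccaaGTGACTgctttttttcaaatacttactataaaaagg
snu3 promoter: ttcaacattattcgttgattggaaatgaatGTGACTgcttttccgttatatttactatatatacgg
snu4 promoter: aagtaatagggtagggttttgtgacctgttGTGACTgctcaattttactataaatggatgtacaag
The capitals begin 59 bases before the record of U1 (chromosome II, plus strand), 59 before that of snu32 (chromosome II, minus strand) and 51 before that of U4 (chromosome II, minus strand). For snu3 (chromosome I, minus strand) they begin 181 bases before the record and 59 before the base that aligns with the first of snu32. A match is a description and no measure of binding.

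Counts of protein genes of these particles stand beside 40.4% of all tested features higher and 43.2% lower, with a median log2 fold change of −0.03. All 4 box C/D core protein genes were lower, with a median log2 fold change of −0.55: nop56 averaged 361 ± 33.6 CPM with overexpression and 556 ± 30.04 CPM in controls (−0.62, adjusted p = 4.81e-07), snu13 fell by 0.73, nop58 by 0.48 and fib1, the methyltransferase of the class, by 0.40. All 3 tested box H/ACA core protein genes were lower, with a median of −0.69: gar1 averaged 22.5 ± 5.14 CPM with overexpression and 63.5 ± 7.28 CPM in controls (−1.49, adjusted p = 6.01e-08), nop10 fell by 0.69 and nhp2 by 0.59. The gene of the pseudouridine synthase, cbf5, was listed at 0 in all libraries.

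Genes of the U3 processome, the particle around U3, were mostly lower while both U3 RNAs were higher. Of 24 tested, 22 passed as lower and 1 as higher (median −0.69). rrp9, a U3-specific protein, averaged 42.2 ± 5.33 CPM with overexpression and 120 ± 13.1 CPM in controls (−1.51, adjusted p = 7.15e-10). utp22 fell by 1.28 ± 0.06 and rrp5 by 1.16 ± 0.07 (adjusted p = 1.72e-11 and 2.25e-10). Of 24 tested genes of snoRNA and snRNA assembly and maturation 15 passed as lower and 5 as higher (median −0.32). Among them csl4 and rrp41, both of the RNA exosome, fell by 1.12 ± 0.06 and 0.99 ± 0.07, and rvb2, an ATPase of snoRNP assembly, by 0.74 ± 0.05.

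The counts for protein genes of the spliceosomal particles also stand beside 40.4% higher and 43.2% lower over all tested features, and the U1 and U2 lists are short. Of 13 Sm and Lsm genes tested 7 were lower and 1 higher (median −0.12), with falls of 1.10 for lsm1, which acts in mRNA decay, 0.66 for sme1 and 0.45 for smd1. Of 5 U1 protein genes 2 were lower, prp39 by 0.90 ± 0.05 and usp109 by 1.22 ± 0.07, and 1 was higher, prp40 by 0.21 ± 0.07 (median −0.07), while U1 RNA was higher. Of 10 U2 protein genes 4 were higher and 4 lower (median 0.01): sap62 rose by 1.49 ± 0.09, and prp12 fell by 0.68 ± 0.05 and lea1 by 0.60 ± 0.06. Of 9 genes of the U4/U6 and U5 particles 1 was higher and 5 lower (median −0.33): prp1 fell by 0.54 ± 0.06 and prp38 by 0.57 ± 0.09. These counts leave out sad1, which the list took in by its name and which was left out after its values were seen. In fission yeast it encodes a spindle pole body protein, and with it 2 of 10 were higher and 5 lower (median −0.20).

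The scale matters for the smaller changes. With library totals in place of TMM factors, all tested features had a median of −0.39 on the log2 scale, against −0.03 with TMM, and each member shifted down with it. U1, snoU14, snu3 and snu32 remained higher and all 5 falling members remained lower under TMM, RLE, upper-quartile and library-total scaling, except that snoR47 did not pass with RLE factors. sno12 (0.35), U6 (0.78) and snR101 did not pass with library totals, and snR101 did not pass with upper-quartile factors either, while snoR39b passed as lower under both. snoR54b changed sign under upper-quartile and library-total scaling (−0.07 and −0.23) and snR5 under RLE (0.02), both without a call in any of the 4. Whether groups lay apart was read on TMM-scaled CPM, and with library totals the groups of U5, snu32 and snR10 overlap.

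**Figure D5:**
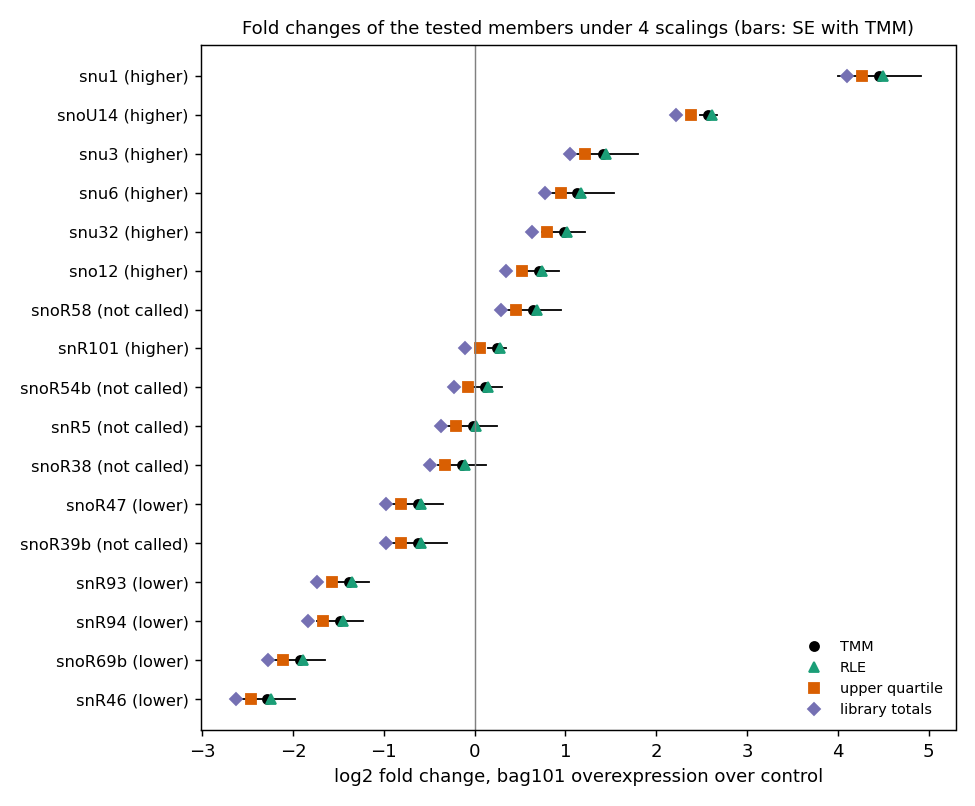
Log2 fold change of each tested member, overexpression over control (horizontal axis), under 4 scalings of the libraries, with the SE of the TMM value as a bar and the TMM call beside each name. The points of a member lie within about the same distance of each other in every row, with library totals lowest, so that only changes near 0 switch sides.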

How the data were processed

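Per the labels' protocols, total RNA of 10 cultures was extracted with hot phenol; the library protocol was not provided. For each sample the authors deposited a table of raw read counts per feature. Trimmomatic 0.32, STAR 2.3.0e, HTSeq (no version) and build ASM294v2 are named in the submitters' processing notes. Not given in the sources used here are the release of the annotation and the strand setting of the counting. Reads in no feature (0.319% to 0.502% of listed reads with overexpression, 0.211% to 0.276% in controls), in more than 1 feature (13.7% to 16.3% with overexpression, 10.9% to 13.1% in controls) or at more than 1 place (22.3% to 37.9% with overexpression, 23.2% to 36.8% in controls) stayed out of library sizes and tests.

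Names, classes, positions relative to other features and sequences come from RefSeq for ASM294v3, matched by identifier for 6843 of 7017 features and all 60 members. This is not the authors' build, so no coordinates are given.

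Counts were tested with edgeR 4.0.16 (R 4.3.3): filterByExpr with a minimum count of 10, TMM factors and the robust quasi-likelihood F-test without covariates, with calls at p below 0.05 after Benjamini-Hochberg adjustment over the 4681 features that passed. The fit was tested on simulated data in which few features changed, equally often up and down. Most tested features were called here, so that test does not check the scaling of these libraries. Standard errors were derived from each F statistic. The p-values of this test set the difference between the groups against the spread between these samples within groups, which the fit moderates across features. Ratios of RNAs were compared with a two-sided exact permutation test (SciPy 1.17.1), and sequences were aligned with Biopython 1.88. Alternatives were other scalings, other filters, DESeq2 1.42.0, limma 3.58.1 (voom), a replicate block and leaving out each library.

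The members and the gene lists were chosen with earlier results of these data known. Named were every SPSNRNA. member, the 10 SPSNORNA. members with the highest mean CPM, the 6 largest rises and falls among called SPSNORNA. members whose groups lay apart (1 rise and 4 falls met this), every member that shares bases with a tested protein-coding gene, and up to 3 called genes with the smallest p per list. Tested protein-coding hosts and opposite genes are named beside their member. Adjacent genes are named for some members only, outside these rules. No set was tested.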

Additional observations from a re-analysis of the deposited data

Results flagged for a closer look

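snoR54b stood at 18.8 CPM in overexpression library 1, far from the other 4 overexpression libraries at 10.05 to 12.4 CPM. Of 40 groups of values looked at in this way it was the 1 that stood out, and chance alone gives about 1 in 20. Among the 17 tested members the same library held the lowest level of its group for 8 (U1, snu3, sno12, snR101, snR93, snR5, snoR38 and snoR39b) and the highest for 2 (snoR54b and snR94); it was also the lowest for U2.

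Reads that overlapped more than 1 feature, which enter no comparison, made up 13.7% to 16.3% of listed reads in the overexpression libraries and 10.9% to 13.1% in controls, without overlap. Reads in no feature made up 0.319% to 0.502% with overexpression and 0.211% to 0.276% in controls, also without overlap. Their part in the members' counts was not tested.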

How the results depend on the processing

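The calls of the 17 tested members were recomputed under 20 alternatives. Of these values 287 kept direction and side of the threshold, 21 kept direction but no longer passed, 5 newly passed and 14 changed sign. U1, snu3, snu32, snoU14, snR93, snR94, snR46 and snoR69b passed in the same direction wherever they were tested. All alternatives use the same counts, and under the main filter U1, snR46 and snoR69b had to differ between the groups to be tested. The 7 members called higher became 4 with library totals. With a mean of at least 10 CPM only 4 members were tested, of which 3 were called higher and 0 lower by edgeR; all 4 had a fold change above 0, so none is lower at any p. Sign changes were limited to members near 0: snR5 (0.018 with RLE factors, 0.016 with overlap-free TMM, 0.015 with DESeq2, −0.20 to 0.15 with 1 library left out), snoR54b (−0.070 with upper-quartile factors, −0.23 with library totals, −0.068 to 0.19 with 1 library left out), snR101 (−0.11 with library totals) and snoR38 (−0.30 to 0.055 with 1 library left out). The cause was not tested. The U1 to U2 difference was 1.94 with 1 read added (adjusted p = 0.0476 by the exact permutation test) and 1.59 to 2.299 with 1 library left out; it passed 0.05 after adjustment without overexpression replicate 3 alone of these. The U4 to U6 difference ran from −0.23 to 0.13 with 1 library left out. Shares of reads in members were 0.0117% with overexpression and 0.00761% in controls when reads on more than 1 feature joined the total, and 0.00716% with overexpression and 0.00749% in controls without snoU14, a choice made after seeing the data. Same-numbered libraries did not deviate together (r −0.09 to 0.09, and 1 of 5 overexpression libraries correlated best with its own number). With the replicate number as a block, all 12 members were called as before. Levels of a few reads per library limit what can be seen for most members.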
